A study of Homo sapiens with 2 samples.

Results

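Zinc homeostasis genes were followed on 2 Affymetrix expression arrays of the human lung adenocarcinoma cell line CL1-0. The array for cells given an antibody to FSTL1, a secreted glycoprotein, for 6 h was set against the array for cells given it for 0 h. Both cultures were puromycin-selected, stably transduced cells, per the labels' protocols, with no vector named. The 10 genes described are the plasma membrane zinc exporter SLC30A1, the zinc exporter SLC30A5, the zinc importers SLC39A10 and SLC39A14, the zinc-sensing transcription factor MTF1, and the metallothioneins MT1E, MT1F, MT1G, MT1X and MT2A. They were taken out of 19775 genes on the array as all 24 probe sets that the platform annotation gives to these symbols, and 0 of the 24 were annotated to several genes. The genes were chosen by their differences between these arrays, above all the lower SLC30A1 value at 6 h, so all differences below are descriptions.

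Values are MAS5 signal intensity on a linear scale. Intensities under 45.4, the 50th percentile of both arrays pooled, were set to that value, an assumed floor. A probe set was taken as measured when it lay above the floor on at least 1 array, which held for 20 of the 24, and 19 of these lay above it on both. With a single array at each time, no difference can be set against replicate error or tested for significance. In its place the scatter between measured probe sets of 1 gene is given, 0.16 on the log2 scale (SD, pooled over 6122 genes), although such probe sets are not replicates. Differences of at least 0.32 on the log2 scale, close to 2 such SDs, were counted as past the counting size: a 6 h value at 80% of the 0 h value or less, or at least 25% above it. Time in culture and handling cannot be told apart from the antibody.

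The labels name the cell type as type II alveolar, and its markers gave a mixed picture. Of 12 such genes 10 had probe sets and 7 were measured, 2 lower and 5 higher at 6 h, with a median log2 difference of 0.26. Over all measured genes 45.7% were lower and 54.3% higher by any amount. LPCAT1, a surfactant lipid enzyme, was the brightest, at 1073 at 6 h against 1314 at 0 h (log2 difference -0.29). The transcription factor ETV5 read 381.5 at 6 h against 202.1 at 0 h (0.92), and its 4 sets ran from 0.14 to 0.92. The surfactant proteins were dimmer: SFTPB read 132.7 at 6 h against 103.8 at 0 h (0.35), with sets from -0.39 to 0.35. SFTPC read 92.3 at 6 h against 113.3 at 0 h (-0.30), with sets from -0.30 to 0.02. By brightest set ABCA3 (0.26), NAPSA (0.26) and NKX2-1 (0.275, with its other set at -0.18) were also higher. SFTPD, LAMP3 and SLC34A2, all 3 named after their values were seen, lay under the floor on both arrays. Of 6 general epithelial genes 3 were measured, the keratins KRT18 at 120.9 at 6 h against 148.2 at 0 h (-0.29), KRT7 at 49.8 at 6 h against 57.7 at 0 h (-0.21) and KRT8 at 52.4 at 6 h against 48.1 at 0 h (0.12), while KRT19, EPCAM and CDH1 were under the floor. No leukocyte marker of the 6 with probe sets was measured, and of 8 fibroblast and 7 endothelial markers 2 each were. The fibroblast gene COL1A1 read 179.4 at 6 h against 230.1 at 0 h (-0.36), while its other measured set differed by 0.94. DCN read 41.1 at 6 h, under the floor, against 50.5 at 0 h, so its -0.15 is a bound. The endothelial gene PECAM1 read 54.5 at 6 h against 73.5 at 0 h (-0.43), and ERG 56.6 at 6 h against 61.9 at 0 h (-0.13). Most sets of these genes lay under the floor on both arrays. PECAM1 was measured on 1 of 5 sets, ERG on 1 of 4, COL1A1 on 2 of 5, DCN on 1 of 7 and KRT7 on 1 of 4.

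Cells keep free cytosolic zinc very low. Proteins of the SLC30A family (ZnT) move zinc out of the cytosol, across the plasma membrane or into organelles, and proteins of the SLC39A family (ZIP) move it in. Metallothioneins are small cysteine-rich proteins that bind zinc and copper. MTF1 senses zinc through its zinc fingers: when zinc is plentiful it binds metal response elements and raises transcription of SLC30A1 and the metallothioneins, and work in mouse cells described it as holding SLC39A10 down. Low zinc is described as giving the reverse, with SLC30A1 and metallothionein transcripts low and SLC39A10 high. Metallothionein genes also respond to glucocorticoids and oxidants.

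Promoter windows were taken from RefSeq (build GRCh38.p14, 250 bases before to 50 bases after a transcript start). Those of 6 of the 10 genes were searched on both strands for the core of the metal response element, spelled TGCACNC or TGCGCNC. The windows of SLC30A1, MT1X, MT2A and SLC39A10 are shown because these genes carry the textbook zinc directions, with the cores in capitals. The window of SLC30A5 is shown because it holds the zinc transcriptional regulatory element (ZTRE), a palindrome of CACTCC and GGAGTG with 0 to 10 bases between, described at genes that zinc represses, which is in capitals there in place of the core. Sequences read from 5′ to 3′ along the gene.
SLC30A1, chr1:211579112-211579411, minus strand: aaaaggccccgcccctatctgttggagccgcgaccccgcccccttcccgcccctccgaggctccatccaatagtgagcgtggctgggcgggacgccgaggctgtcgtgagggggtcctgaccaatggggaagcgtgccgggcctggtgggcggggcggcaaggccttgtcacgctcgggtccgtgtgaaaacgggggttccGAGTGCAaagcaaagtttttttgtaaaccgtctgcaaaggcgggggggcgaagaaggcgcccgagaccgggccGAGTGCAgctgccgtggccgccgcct
MT1X, chr16:56682220-56682519, plus strand: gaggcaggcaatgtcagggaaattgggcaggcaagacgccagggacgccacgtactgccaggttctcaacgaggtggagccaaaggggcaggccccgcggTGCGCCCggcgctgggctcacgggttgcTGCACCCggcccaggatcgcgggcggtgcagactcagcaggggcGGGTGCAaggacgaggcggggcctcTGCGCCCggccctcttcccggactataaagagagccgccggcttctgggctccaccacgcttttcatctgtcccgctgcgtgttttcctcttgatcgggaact
MT2A, chr16:56608334-56608633, plus strand: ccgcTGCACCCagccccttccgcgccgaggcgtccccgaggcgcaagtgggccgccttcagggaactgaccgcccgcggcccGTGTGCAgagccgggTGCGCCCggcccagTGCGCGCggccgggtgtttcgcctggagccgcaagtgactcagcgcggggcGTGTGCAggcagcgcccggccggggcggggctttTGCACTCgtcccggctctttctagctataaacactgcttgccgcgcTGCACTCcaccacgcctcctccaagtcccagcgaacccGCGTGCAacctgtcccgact
SLC39A10, chr2:195656976-195657275, plus strand: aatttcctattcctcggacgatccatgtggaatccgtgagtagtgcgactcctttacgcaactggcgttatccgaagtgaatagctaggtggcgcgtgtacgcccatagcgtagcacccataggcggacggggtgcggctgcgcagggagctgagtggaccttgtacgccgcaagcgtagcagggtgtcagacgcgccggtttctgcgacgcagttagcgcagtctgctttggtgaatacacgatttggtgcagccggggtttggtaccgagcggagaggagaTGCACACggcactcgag
SLC30A5, chr5:69093764-69094063, plus strand: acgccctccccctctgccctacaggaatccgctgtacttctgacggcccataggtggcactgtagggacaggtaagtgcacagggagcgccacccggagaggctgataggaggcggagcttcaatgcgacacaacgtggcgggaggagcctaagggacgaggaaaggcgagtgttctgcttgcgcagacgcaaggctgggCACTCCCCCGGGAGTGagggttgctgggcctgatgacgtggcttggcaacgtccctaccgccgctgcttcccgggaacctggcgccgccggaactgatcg

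The MT2A window held 8 cores and the MT1X window 4, where 0.02% and 0.60% of 35116 windows held as many. The SLC30A1 window held 2 cores, both on the opposite strand, starting 49 bases before and at base 25 after the start, and 8.6% of windows held at least 2. RefSeq lists 2 windows for SLC39A10: the one shown held 1 core and the other held 0, and 29.6% of all windows held at least 1. The MTF1 and SLC30A5 windows held 0 cores. No window was available for MT1E, MT1F and MT1G, and SLC39A14 was left out of the search, so nothing is said of cores at these genes. The ZTRE palindrome of SLC30A5 began 50 bases before the start, and 8 of all windows held such a palindrome. These matches describe letters in the windows and do not show binding.

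**Figure D1:**
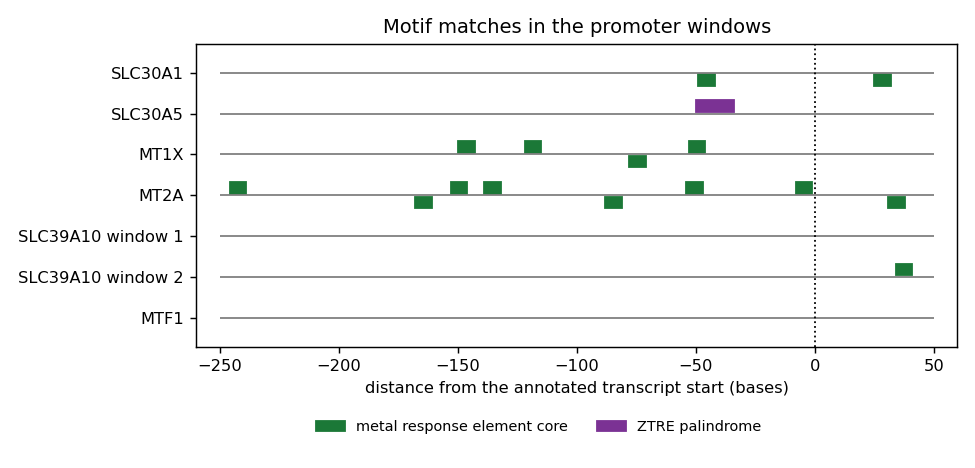
Matches to the metal response element core (green) and the ZTRE palindrome (purple) along each promoter window, against distance from the transcript start in bases; boxes above the line lie on the gene's strand and boxes below it on the opposite strand. MT2A has 8 cores and MT1X 4, SLC30A1 has 2, SLC39A10 has 1 in its second window, and SLC30A5 has a ZTRE and no core.

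SLC30A1, which pumps zinc out across the plasma membrane, had the lowest difference of the 10 genes. Its brightest probe set, 212907_at, read 420.5 at 6 h against 622.7 at 0 h, so the 6 h value was 67.5% of the 0 h value, a log2 difference of -0.57. The second set, 228181_at, read 96.7 at 6 h against 134.4 at 0 h, a log2 difference of -0.48. Both sets were thus lower at 6 h by a similar proportion although their brightness differed. The third set, 242716_at, lay under the floor on both arrays, at 15.5 at 6 h and 19.7 at 0 h, and has no direction here. Among the 12669 measured genes SLC30A1 was the 28th from the lowest. In a culture, fewer cells with the transcript and less transcript per cell cannot be told apart.

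SLC30A5 forms a complex with SLC30A6 and loads zinc into the early secretory pathway, where enzymes such as alkaline phosphatases take it up. All 5 of its probe sets were lower at 6 h, none past the counting size. Over all 28206 measured probe sets on the arrays 45.0% were lower by any amount and 3.35% were lower past that size. The brightest at 6 h, 218989_x_at, read 619.7 at 6 h against 640.5 at 0 h (log2 difference -0.05), and 232432_s_at read 588.2 at 6 h against 654.9 at 0 h (-0.15). The lowest difference was that of 220181_x_at, at 250.5 at 6 h against 305.6 at 0 h (-0.29). The set 1555334_s_at read 150.0 at 6 h against 164.9 at 0 h (-0.14). The dimmest, 243166_at, was above the floor at 0 h alone, at 44.3 at 6 h against 51.7 at 0 h, so its difference of -0.19 is a bound. All 5 thus had the same sign, with sizes from close to 0 to just under the counting size.

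The metallothioneins buffer zinc. Of their 8 measured probe sets 7 were lower at 6 h, beside 45.0% of all measured probe sets. MT1G had the lowest difference: 204745_x_at read 531.7 at 6 h against 691.1 at 0 h (log2 difference -0.38). MT1X was lower on both of its sets: 204326_x_at read 1308 at 6 h against 1585 at 0 h (-0.28), and 208581_x_at read 881.9 at 6 h against 1106 at 0 h (-0.33). The 2 MT1X sets differed from each other by less than the scatter between sets.

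The other metallothioneins were less even. For MT1E, 212859_x_at read 120.0 at 6 h against 155.6 at 0 h (log2 difference -0.37), while the brighter 216336_x_at read 369.8 at 6 h against 389.5 at 0 h (-0.07). The 2 MT1F sets went opposite ways, with 217165_x_at at 394.8 at 6 h against 434.9 at 0 h (-0.14) and 213629_x_at at 114.7 at 6 h against 105.6 at 0 h (0.12), so MT1F has no settled direction. MT2A, read by 1 set, was at 1396 at 6 h against 1516 at 0 h (-0.12). Over the 8 sets the median log2 difference was -0.21.

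The metallothionein readings may not be independent of each other. All 8 measured sets have identifiers ending in _x_at, the platform's mark for probes that can bind transcripts of several genes. The member MT genes lie in 1 cluster on chromosome 16, where RefSeq lists 15 genes and pseudogenes from MT2A to MT1X, all but 1 of them named as metallothioneins. The 1 member set without this mark, 210472_at for MT1G, was under the floor on both arrays, at 13.0 at 6 h and 12.8 at 0 h. The part that transcripts of other metallothionein genes play in the MT1G signal of 204745_x_at was not tested. As a description of the mark itself, 3.34% of 2788 measured _x_at sets were lower at 6 h past the counting size, and 45.1% were lower by any amount.

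**Figure D2:**
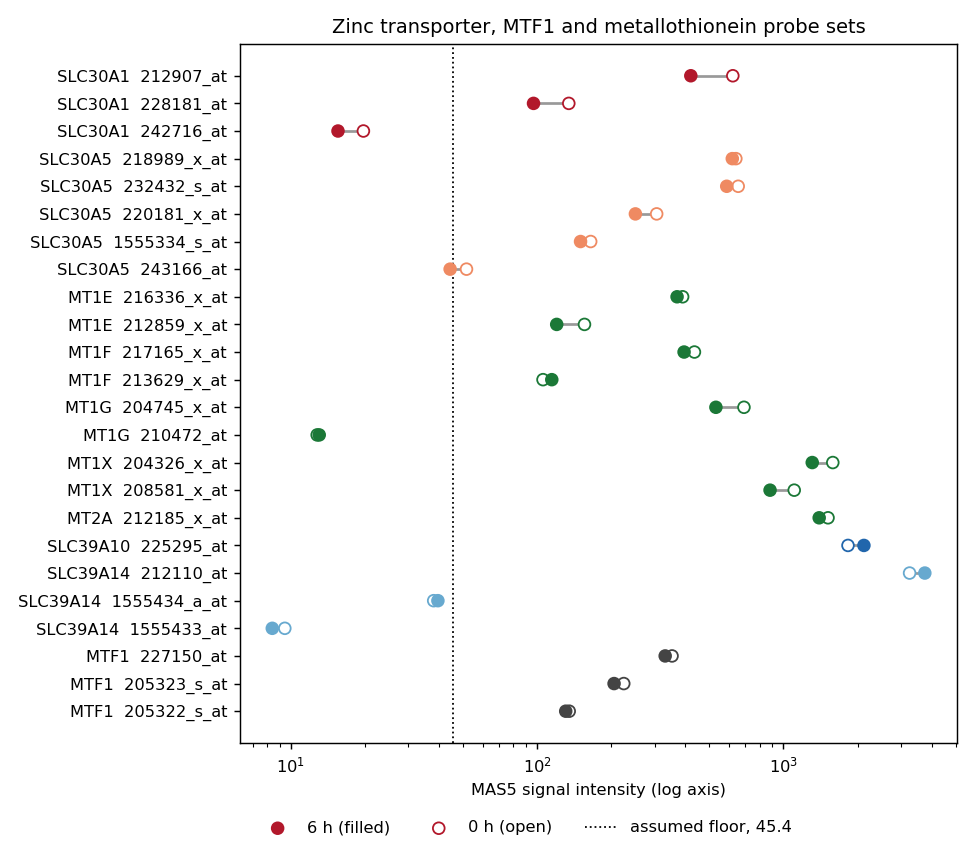
MAS5 signal intensity (log axis) of all 24 probe sets, with the 6 h array as filled points, the 0 h array as open points and the assumed floor of 45.4 as a dotted line. SLC30A1, SLC30A5 and most metallothionein sets lie further left at 6 h, SLC39A10 and the bright SLC39A14 set lie further right, and 4 sets lie under the floor on both arrays.

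The importers had higher values at 6 h. SLC39A10, a plasma membrane importer, read 2121 at 6 h against 1827 at 0 h on 225295_at, a log2 difference of 0.21. This was the only probe set annotated to it alone. SLC39A14, which carries zinc, iron and manganese and is known to be induced in inflammation, read 3747 at 6 h against 3250 at 0 h on 212110_at, a difference of 0.21. Neither passed the counting size, and each gene rests on 1 measured set, so no second reading bears on either. The other SLC39A14 sets were under the floor: 1555434_a_at was at 39.5 at 6 h and 38.0 at 0 h, and 1555433_at at 8.41 at 6 h and 9.45 at 0 h.

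The transcript of the sensor itself differed little. MTF1 read 330.9 at 6 h against 352.9 at 0 h on 227150_at (log2 difference -0.09). It read 205.2 at 6 h against 224.7 at 0 h on 205323_s_at (-0.13) and 130.6 at 6 h against 135.0 at 0 h on 205322_s_at (-0.05). All 3 differences lay within the scatter of 0.16. MTF1 is known to be regulated by zinc binding and nuclear entry, which transcript levels do not show.

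Of the 20 measured member probe sets 17 were lower and 3 higher at 6 h; 5 were lower past the counting size and 0 were higher past it. Beside the shares of all measured probe sets that were lower (3.35% past this size, 45.0% by any amount), 7.22% were higher past it and 54.9% by any amount. Under quantile normalization 4.35% of all sets were lower and 5.55% higher past it. Of the 10 genes, each read by its brightest set, SLC30A1 and MT1G were lower past the counting size and 0 were higher past it, where 3.0% and 6.28% of 12669 measured genes were. None of the 10 was 1.5-fold lower (by 0.585 on the log2 scale) on the values as deposited, as 0.182% of genes were. That call turns with the scaling: SLC30A1 was past 1.5-fold at -0.59 with the differences centred, at -0.62 under quantile normalization and at -0.62 under loess, where 0.229%, 0.245% and 0.237% of genes were. The median over the 10 genes was -0.11, against 0.02 over all measured genes. Since the members were chosen with these values known, nothing is read from their excess over the background.

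Set against the directions described for MTF1, SLC30A1 and the metallothioneins should move opposite to SLC39A10. By brightest probe set all 7 of these genes lay on the side described for low zinc (SLC30A1 and the 5 metallothioneins lower at 6 h, SLC39A10 higher), and by measured probe set 10 of 11 did, the exception being 213629_x_at of MT1F. Over all measured genes 45.7% were lower and 54.3% higher by any amount. The 7 genes were chosen with these values known, so nothing is read from this count. MT1F counts as lower by its brighter set alone. SLC30A5 is not among the 7: its window holds the element of genes that zinc represses, for which low zinc would mean a higher value, and all 5 of its sets were lower at 6 h. Most of these differences were small: SLC30A1, MT1G, and 1 set each of MT1X and MT1E passed the counting size. Zinc was not measured here, and 8 of the 11 sets are metallothionein sets that carry the _x_at mark.

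**Figure D3:**
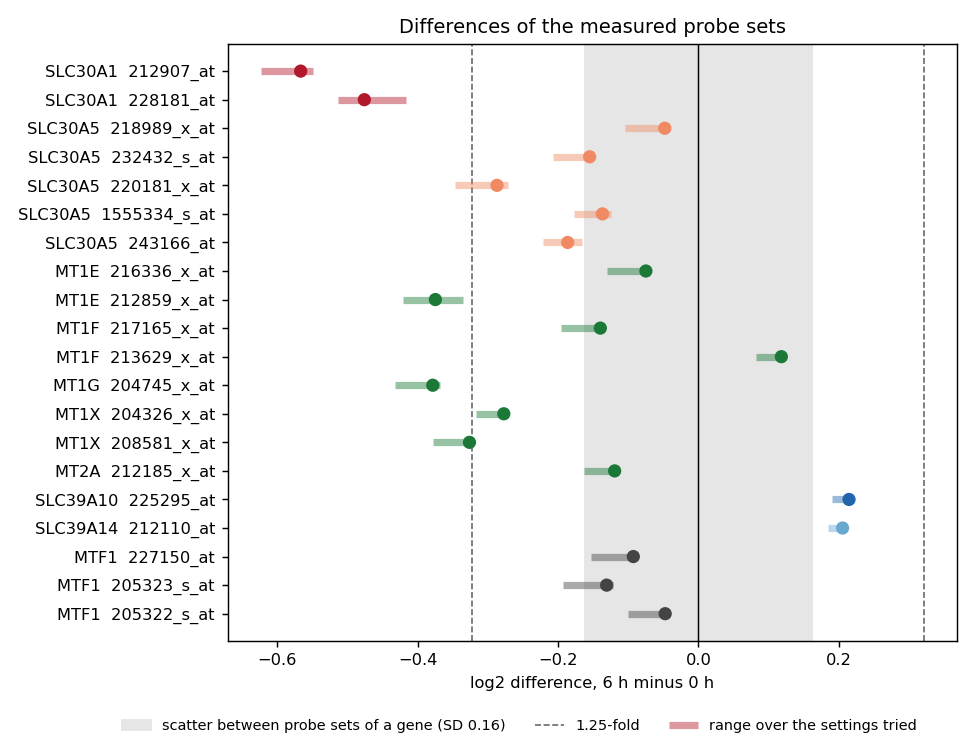
Log2 difference (6 h minus 0 h) of each of the 20 measured probe sets as a point, with a bar for its range over the settings tried, a grey band for the within-gene scatter (SD 0.16), and dashed lines at the counting size of 0.32 each way. Both SLC30A1 sets lie left of the lower line over their whole range, the sets of MTF1 lie close to 0, and SLC39A10 and SLC39A14 lie near 0.21.

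**Figure D4:**
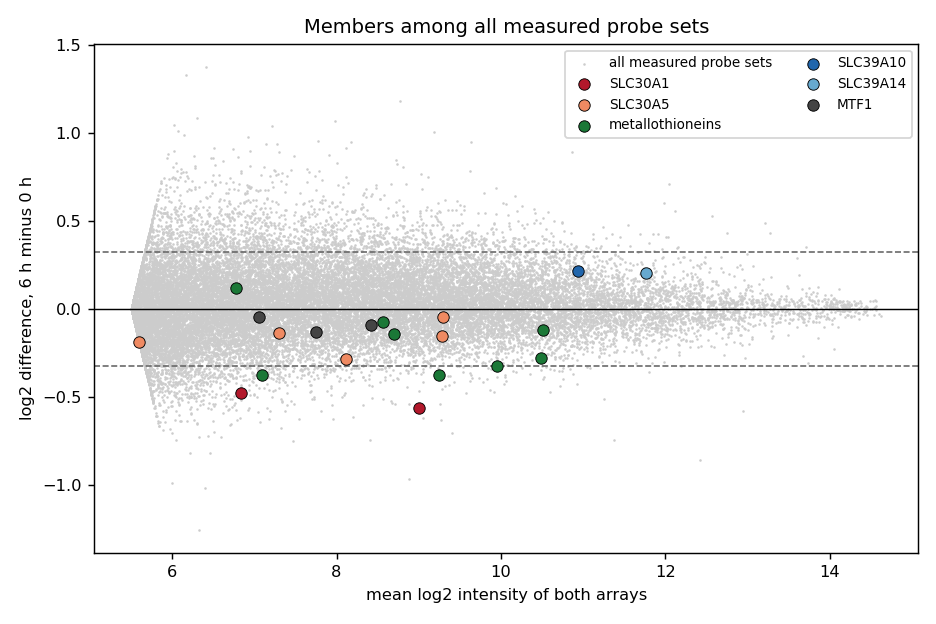
Log2 difference (6 h minus 0 h) against the mean log2 intensity of both arrays, with all 28206 measured probe sets in grey, the members in colour and dashed lines at the counting size of 0.32 each way. The 212907_at set of SLC30A1 lies at the lower edge of the cloud at -0.57, and the metallothionein sets run from -0.38 to 0.12.

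Within the exporter family values went both ways. Of 10 SLC30A genes 8 were measured, 4 lower and 4 higher, with a median log2 difference of 0.0008. SLC30A7, which moves zinc into the Golgi, was the 1 gene higher past the counting size, at 837.5 at 6 h against 661.3 at 0 h (0.34), and its other sets differed by 0.27 and 0.16. SLC30A4, an exporter to endosomal vesicles, read 446.0 at 6 h against 402.4 at 0 h (0.15), and SLC30A3, the exporter known from synaptic vesicles, read 234.6 at 6 h against 245.1 at 0 h (-0.06). SLC30A6, the partner of SLC30A5 and named after its values were seen, read 679.3 at 6 h against 677.1 at 0 h on its brightest set (0.005). Its other measured sets differed by 0.26 and 0.09. SLC30A8 and SLC30A10 were under the floor.

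Among the importers 11 of 14 SLC39A genes were measured, 7 higher and 4 lower, with a median of 0.05 and 0 past the counting size. SLC39A1, a plasma membrane importer, was the highest, at 396.8 at 6 h against 333.1 at 0 h (0.25). SLC39A10 and SLC39A14 came next. SLC39A6, a close relative of SLC39A10 and its known partner, read 3423 at 6 h against 3167 at 0 h (0.11), and its 4 sets ran from -0.003 to 0.38. SLC39A8, the nearest relative of SLC39A14, had 6 sets, all under the floor.

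Of 13 metallothionein genes 9 were measured, 8 lower and 1 higher at 6 h, beside 45.7% and 54.3% of all measured genes. The median was -0.14. MT1G alone was past the counting size, where 3.0% of all measured genes were lower past it. MT1H read 598.8 at 6 h against 691.5 at 0 h (-0.21) and MT1HL1 read 812.6 at 6 h against 934.8 at 0 h (-0.20), both on _x_at sets. MT3 and MT4, described mainly in brain and in stratified epithelium and named after their values were seen, were near the floor: MT3 read 55.0 at 6 h against 49.1 at 0 h (0.16) and MT4 read 70.6 at 6 h against 73.3 at 0 h (-0.06). MT1M had its 1 set under the floor.

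Genes linked to MTF1 outside these families did not share a direction. Of 7 measured, MTF1 included, 4 were lower and 3 higher at 6 h; the median was -0.07 and 0 passed the counting size. The growth factor PGF, described as an MTF1 target in hypoxic mouse cells, read 909.6 at 6 h against 732.0 at 0 h (0.31), with its other set at 0.30. The LIM protein gene CSRP1 read 113.2 at 6 h against 136.5 at 0 h (-0.27), and the heme oxygenase HMOX1 read 1671 at 6 h against 1823 at 0 h (-0.13). Common reference genes, 16 measured of 20, had a median of 0.007, with the largest differences at -0.27 for the transcription factor TBP and -0.12 for the respiratory subunit SDHA.

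**Figure D5:**
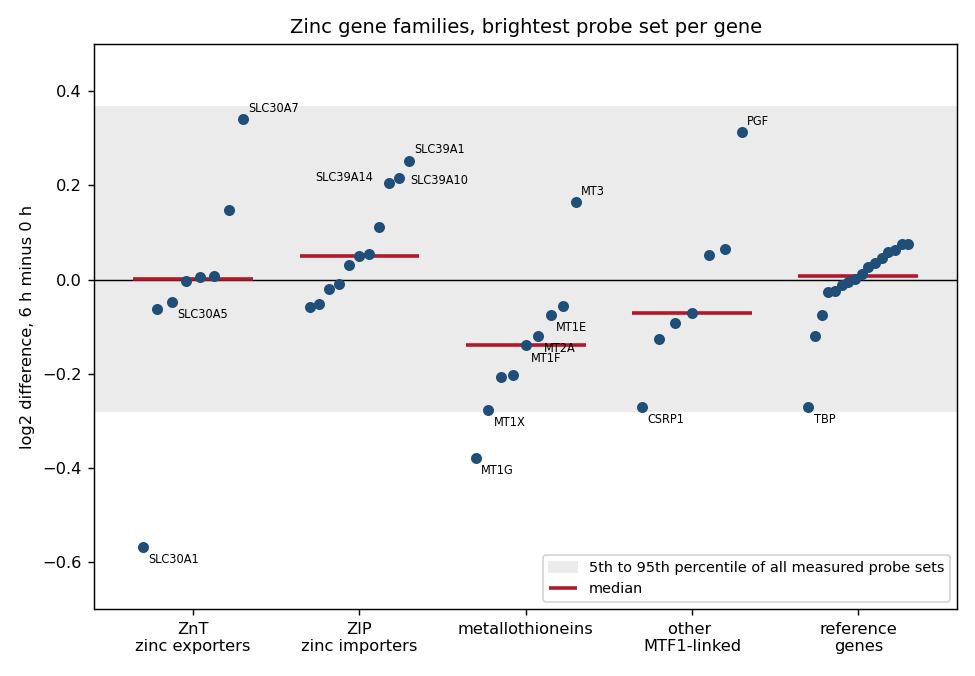
Log2 difference (6 h minus 0 h) of each measured gene by its brightest probe set in 5 gene lists, with the median of each list as a red line and the 5th to 95th percentile of all measured probe sets (-0.28 to 0.37) as a grey band. SLC30A1 at -0.57 and MT1G at -0.38 lie below the band, and SLC30A7 at 0.34 is the highest gene shown.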

How the data were processed

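Total RNA from 1 culture per time was hybridised as biotin-labelled cRNA, per the labels' protocols. The deposited values are intensity on a linear scale for 54675 probe sets per array, summarised by the authors with MAS5, per the submitters' processing notes; version, parameters and any scaling between arrays are not given in the sources used here. By design MAS5 subtracts background and mismatch signal, so dim values are noisy. The mean without the top and bottom 2% was 262.1 at 6 h and 256.4 at 0 h. The number of arrays limits the precision.

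Probe sets were named through the platform annotation, with symbols updated by Entrez identifier (41043 of 41097 single-gene sets matched RefSeq). Values were floored at the 50th percentile and put on log2, and the difference was 6 h minus 0 h. A gene was represented by its set with the highest mean. No test was possible with 1 array per time. Alternatives were other floors (40th and 60th percentile), log2(value + 16) without floor, centring, quantile normalization, a loess curve (span 0.3), the median over sets, and leaving out _x_at and _s_at sets. Steps were tested on simulated data. Python 3.11.15, pandas 2.3.3 and statsmodels 0.14.6 were used. All member genes are named, and up to 4 measured genes with the largest difference in each other list; the unmeasured genes and the few others named beside them were chosen after their values were seen. No gene is named as most like SLC30A1, since with 2 arrays any pair of genes correlates fully. Members and lists were chosen with earlier results of these data known.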

Additional observations from a re-analysis of the deposited data

How the results depend on the processing

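No paired analysis was possible because each time has 1 array. The direction of all 10 genes, each by its brightest or median set, was kept under every setting that gave a value. SLC30A1 lay between -0.62 and -0.52 and MT1G between -0.43 and -0.37 on the log2 scale, both past the counting size throughout (for MT1G, wherever it was measured), while SLC39A10 lay between 0.19 and 0.21. The number of member probe sets lower past the counting size was 4 with log2(value + 16), 6 under quantile normalization or loess, and 5 otherwise. Leaving out _x_at and _s_at sets left 1 member gene lower past the counting size (SLC30A1) and turned the metallothionein median to 0.054, because 0 member metallothionein sets remained and MT3 and MT4 alone were counted. The medians of the SLC30A, copper and reference lists stayed within 0.07 of 0 and took both signs. Dim sets near the floor are limited by signal over background, which has no detection calls here.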

Other observations

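Genes of copper and iron handling, the other metals that metallothioneins and metal transporters meet, differed little by brightest set. Of 12 copper genes 10 were measured, 4 lower and 6 higher at 6 h, with a median log2 difference of 0.06 and 0 past the counting size of 0.32. The copper exporters ATP7B, at 141.5 at 6 h against 117.4 at 0 h (0.27), and ATP7A, at 168.4 at 6 h against 148.2 at 0 h (0.18), were higher, and the other measured ATP7A set differed by 0.38. The copper importer SLC31A1 had sets that went opposite ways, from -0.14 to 0.20. SCO2, which delivers copper to cytochrome c oxidase, read 1292 at 6 h against 1568 at 0 h (-0.28).

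Of 14 iron genes 11 were measured, 7 lower and 4 higher at 6 h; the median was -0.006, with 0 past the counting size. The mitochondrial iron importer SLC25A37 was the lowest, at 364.8 at 6 h against 416.2 at 0 h (-0.19), although its 9 measured sets included higher ones. Its paralog SLC25A28 read 301.5 at 6 h against 343.4 at 0 h (-0.19). ACO1, the iron-sensing RNA-binding protein, read 1291 at 6 h against 1178 at 0 h (0.13). Its other set, under the floor at 0 h, differed by 0.38, which is a bound. TFRC was at 0.03 by its brightest set, while a dim set of it was at -0.39.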
